A study of Mus musculus with 8 samples.

Results

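The albumin gene family of mouse chromosome 5 was examined together with the known repressors of its fetal member, in cells labelled as knockout of the histone methyltransferase G9a and in wild-type cells. The genes were Afp, Alb, Afm and Gc, and the repressor genes Zhx2 and Zbtb20. They were taken by name, 6 of the 47434 genes in the table, and the set was selected on the knockout against wild-type difference of Afp in these same libraries. Their knockout against wild-type values are therefore given as descriptions, without a test. Poly-A RNA was sequenced from cells labelled as the mouse hepatoma line Hepa 1-6. Of the 8 libraries, 4 came from cells with a knockout of G9a, which is encoded by Ehmt2, and 4 from wild-type cells of the same line. No treatment is given for either group. The labels state neither how the gene was knocked out nor whether the knockout is 1 clone, and they do not trace the libraries to separate cultures. The p-values therefore reflect only how much these libraries vary, which may be technical. The targeted gene was lower in every library labelled knockout: Ehmt2 RNA stood at 116.7 to 119.8 CPM there (counts scaled to a common library size, with TMM normalization) and at 297.6 to 345.4 CPM in the wild type (log2 fold change -1.41 ± 0.05, edgeR adjusted p = 3.82e-10). Library totals were 58256100 to 75025236 counts.

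Alpha-fetoprotein, the product of Afp, is the major plasma protein of the fetus and is made by the yolk sac and fetal liver. Its gene is shut off in the liver after birth, when albumin takes its place, and is often switched on again in liver tumors, where the protein serves as a blood marker. Afp, Alb (albumin), Afm (afamin, a vitamin E carrier) and Gc (vitamin D binding protein) arose by duplication of 1 ancestral gene, and enhancers between Alb and Afp are shared by the genes next to them. Zhx2, a zinc finger and homeobox protein, and Zbtb20, a BTB and zinc finger protein, are each known to be needed for the postnatal repression of Afp in mouse liver. G9a methylates histone H3 at lysine 9, a modification linked to gene silencing.

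The family lies on chromosome 5 of GRCm38. Gc (ENSMUSG00000035540) spans 89417522 to 89457898 on the minus strand. The other 3 genes form a row on the plus strand, Alb (ENSMUSG00000029368) from 90460897 to 90476602, Afp (ENSMUSG00000054932) from 90490737 to 90508907 and Afm (ENSMUSG00000029369) from 90518932 to 90553543. Zhx2 (ENSMUSG00000071757) lies on chromosome 15 from 57694665 to 57839832, and Zbtb20 (ENSMUSG00000022708) on chromosome 16 from 42875881 to 43642602.

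The 250 bases before the RefSeq start of each family gene are shown because 1 of the 4 genes was at a substantial level in these cells and the other 3 were not. The sequences are RefSeq's (GRCm38.p6), each on its gene's strand, and the windows are chr5:90490464-90490713 for Afp, chr5:90460620-90460869 for Alb, chr5:90518699-90518948 for Afm and chr5:89457899-89458148 for Gc. Capitals mark matches, on either strand, to 5 sequences: TATAAA (the TATA box), CCAAT (bound by NF-Y), TGTTTAC and TGTTTGC (bound by FOXA factors) and TTGCNNAA (the C/EBP core). No match in these windows overlaps another.
Afp: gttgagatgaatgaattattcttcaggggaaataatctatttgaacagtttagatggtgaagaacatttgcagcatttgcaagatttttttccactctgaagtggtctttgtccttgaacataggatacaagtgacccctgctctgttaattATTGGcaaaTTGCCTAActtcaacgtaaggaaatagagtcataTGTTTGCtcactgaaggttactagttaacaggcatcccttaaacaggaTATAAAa
Alb: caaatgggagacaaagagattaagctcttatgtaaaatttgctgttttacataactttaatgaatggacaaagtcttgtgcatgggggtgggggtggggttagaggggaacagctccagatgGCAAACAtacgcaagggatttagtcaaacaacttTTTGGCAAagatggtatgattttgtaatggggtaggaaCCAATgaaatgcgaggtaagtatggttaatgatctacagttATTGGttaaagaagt
Afm: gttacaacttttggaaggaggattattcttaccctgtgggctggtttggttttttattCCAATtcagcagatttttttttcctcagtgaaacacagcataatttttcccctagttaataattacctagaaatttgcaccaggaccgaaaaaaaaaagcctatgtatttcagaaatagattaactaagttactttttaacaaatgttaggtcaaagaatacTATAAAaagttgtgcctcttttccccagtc
Gc: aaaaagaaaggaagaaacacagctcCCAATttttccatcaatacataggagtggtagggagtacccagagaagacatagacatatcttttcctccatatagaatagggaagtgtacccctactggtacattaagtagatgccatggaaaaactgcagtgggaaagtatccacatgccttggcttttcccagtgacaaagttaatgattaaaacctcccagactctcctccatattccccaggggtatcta

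CCAAT was in all 4 windows, as in 33.8% of 32851 mouse promoter windows of this length. In Afp it lay on the opposite strand, from -98 to -94 relative to the RefSeq start. A TATAAA sequence (12.4% of all windows) began at -30 relative to the GENCODE start of Afp, which lies downstream of the RefSeq start, and the Afm window held TATAAA too. The Afp and Alb windows each held the forkhead sequence TGTTTGC (4.3% of all windows) and the C/EBP core TTGCNNAA (9.56%), and those of Afm and Gc held neither. TGTTTAC was in none of the 4 (3.17% of all windows). These matches are letters in a window and no evidence of binding.

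Of these 4 genes only Afp had more than 5 counts in any library. Its levels in the wild-type libraries were 5.09, 5.86, 6.46 and 5.67 CPM, from 312, 387, 446 and 357 counts. In the knockout libraries they were 130.9, 117.6, 144.7 and 139.9 CPM, from 10073, 8143, 8605 and 9981 counts. The groups lay far apart, the lowest knockout library standing 18.2 times above the highest wild-type library, and within each group the libraries were close (coefficient of variation 8.94% in the knockout and 9.82% in the wild type). This is a 23.1-fold higher level, or 4.53 ± 0.09 (SE, 4 libraries a group) as a log2 fold change. Since these are RNA pools of many cells, more Afp RNA per cell and more cells with Afp RNA cannot be told apart. Among the 9139 genes with at least 10 CPM in 1 of the groups, the Afp fold change ranked 8 from the top, and among all 15840 genes tested it ranked 90. Afp was chosen on this contrast, so these ranks are descriptions.

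Albumin RNA was not detected. Alb had 0 counts in each of the 8 libraries, where 0 allows up to 3 counts, or 0.04 to 0.0515 CPM. Afm had 5 counts in knockout replicate 2 and 0 in the other 7 libraries. Gc had 3 counts in knockout replicate 3 and 0 elsewhere. At this depth no difference between the groups could be detected for these 3 genes, and none passed the filter on low counts. Of the 6 genes, 3 passed it: Afp, Zhx2 and Zbtb20.

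**Figure D1:**
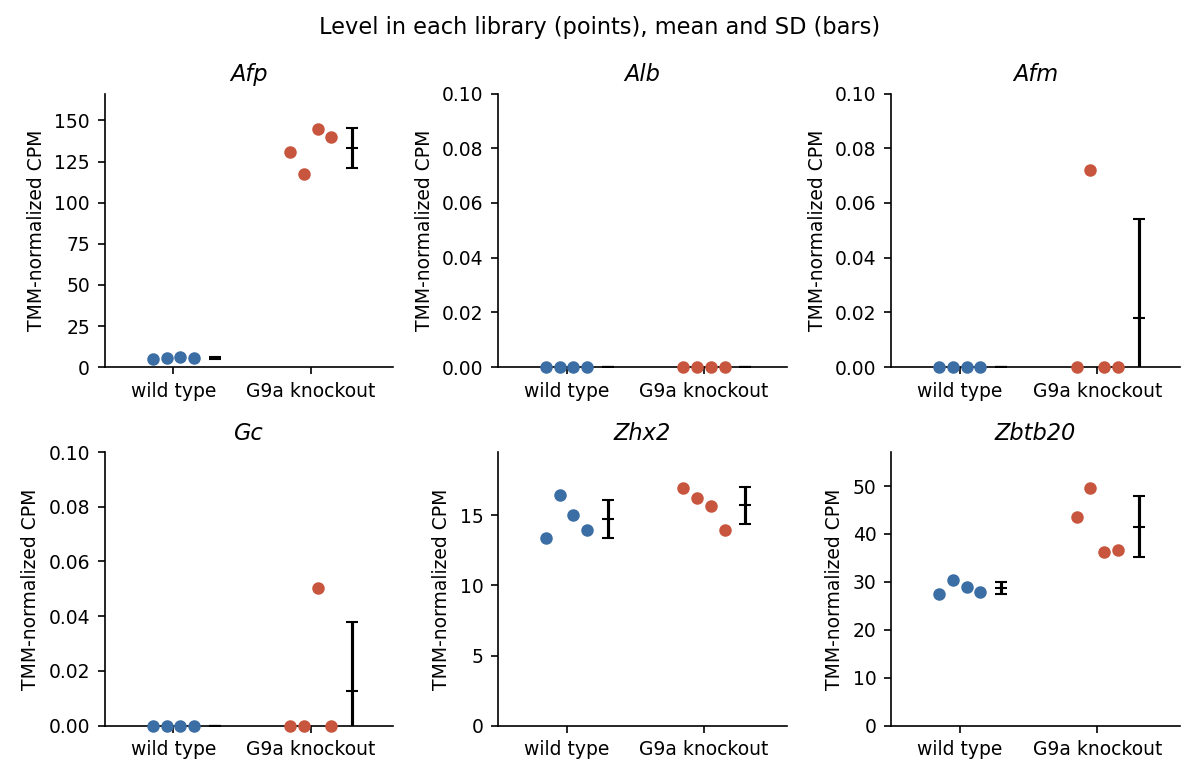
Level of the 6 genes in each library, in TMM-normalized CPM on linear axes that start at 0. Points are libraries, and bars show the mean and SD of 4. Afp sits between 5.09 and 6.46 CPM in the wild type and between 117.6 and 144.7 CPM in the knockout, Alb is at 0 throughout, and Afm and Gc each have counts in 1 library.

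Neither repressor gene was lower in the knockout. Zhx2 stood at 13.4, 16.5, 15.1 and 14 CPM in the wild type and at 17, 16.2, 15.7 and 13.9 CPM in the knockout. The 2 groups overlapped, and the log2 fold change of 0.09 ± 0.09 was as large as its error. Zbtb20 stood at 27.5, 30.4, 28.9 and 28 CPM in the wild type and at 43.5, 49.6, 36.3 and 36.7 CPM in the knockout. Every knockout library lay above every wild-type library, by at least 1.2 times, and the log2 fold change reached 0.53 ± 0.09 (SE; 0.261 after the median of tested genes within 5 Mb was taken off). The groups thus did not overlap for 2 of the 3 genes tested, as they did not for 43.9% of the 15840 genes tested. That contrast chose the genes, so nothing is read from the count.

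The Zbtb20 values spread more in the knockout (coefficient of variation 15.2%, against 4.4% in the wild type), with replicate 2 highest and replicates 3 and 4 lowest. Nearly all its counts were on a transcript of 26901 bases. Among 205 other genes with at least 10 CPM and a main transcript over 10000 bases, knockout replicate 2 had the highest median deviation from the mean of the 8 libraries (0.136 on the log2 scale) and replicates 3 and 4 the lowest (-0.14 and -0.129). The part of transcript length in the Zbtb20 values was not tested. The median log2 fold change of those long genes was -0.101.

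**Figure D2:**
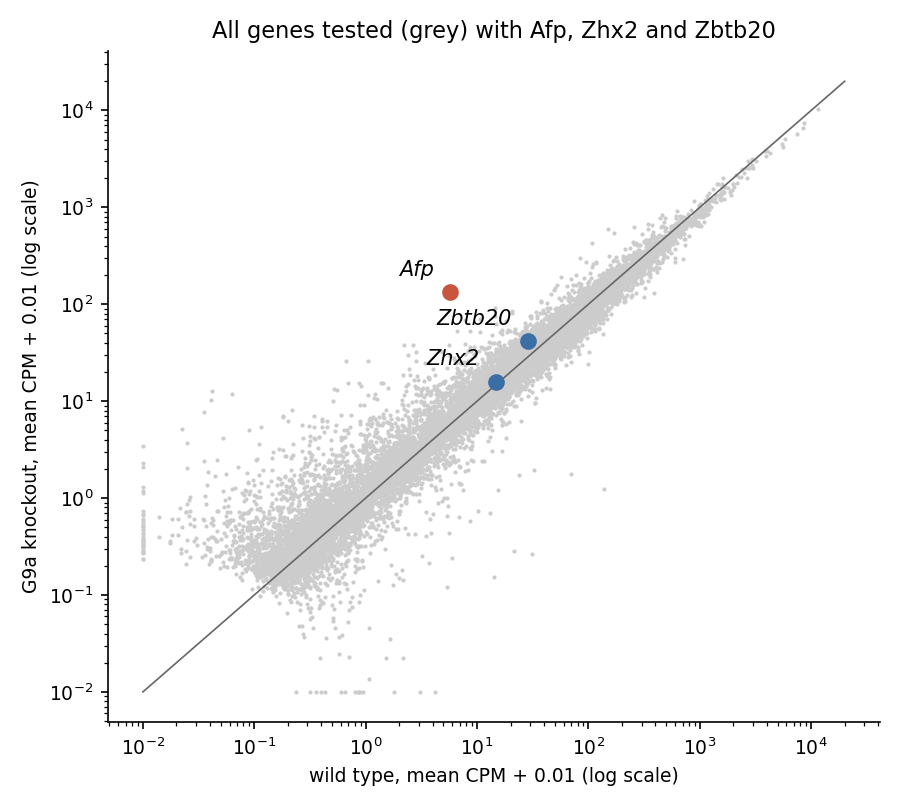
Mean level in the wild type (x axis) against the knockout (y axis), both in CPM plus 0.01 on log scales, for all 15840 genes tested (grey). Afp lies far above the line of equal level, Zbtb20 lies above it and Zhx2 close to it.

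Levels can be compared between genes only per length, here in the length-normalized unit TPM. In the wild type Zhx2 was highest (6.63 ± 0.504 TPM, SD), followed by Afp (5.68 ± 0.593 TPM) and Zbtb20 (2.6 ± 0.304 TPM). The Zhx2 range of 6.14 to 7.33 TPM and the Afp range of 5.18 to 6.51 TPM overlapped, and Zbtb20 lay under both (2.22 to 2.9 TPM). The TPM of Zbtb20 rests on the length of its main transcript, 26901 bases, and the split of counts between transcripts is an estimate. In the knockout the order was Afp (137.3 ± 8.78 TPM), Zhx2 (7.57 ± 0.775 TPM) and Zbtb20 (3.72 ± 0.567 TPM), with no overlap between neighbors in the order. By TPM, Afp ranked 9432 among all genes of the table in the wild type and 1143 in the knockout. Alb, Afm and Gc were at or near 0 in both groups.

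Each expressed gene was represented by 1 main transcript. Of 5 annotated Afp transcripts, 2 had counts. The protein-coding form, of 15 exons and 2063 bases, held 301, 382, 428 and 355 counts in the wild type and 9798, 7999, 8408 and 9775 in the knockout. That was 96% to 99.4% of the counts of the gene. The rest were on a retained-intron form of 691 bases at the 3′ end, of which 324 bases (46.9%) are also exon in the protein-coding form. Its share was 1.77% to 2.73% in the knockout libraries and 0.56% to 4.04% in the wild-type libraries, where it rested on 2 to 18 counts. The ranges overlapped, and since the forms share bases their split is an estimate. A single transcript held 99.8% to 100% of Zhx2 counts, and another 99.1% to 99.6% of Zbtb20 counts, with 15 of 21 annotated Zbtb20 transcripts having any count.

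Of the genes tested around the family, most were higher in the knockout. Within 1 Mb of Alb, Afp and Afm the annotation places 37 other genes in the table, of which 17 were tested. Of these 12 rose, none fell and 5 were not called (edgeR quasi-likelihood test, Benjamini-Hochberg adjusted p under 0.05 over all genes). Over all genes tested, 23.6% rose and 23.6% fell. With library sizes alone as the scaling, 4543 genes rose and 2742 fell, in place of 3742 and 3734. The median log2 fold change of the 17 was 0.628, against 0.004 over all genes tested. The genes of a region are not independent of each other.

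The nearest gene on the Afm side also belongs to the albumin superfamily by its RefSeq name. The gene listed as 5830473C10Rik in GENCODE and as Albfm1, albumin superfamily member 1, in RefSeq starts 8 kb past the end of Afm and was picked out after its values were seen. Its levels were 0.065, 0, 0.072 and 0.159 CPM in the wild type and 0.598, 0.505, 1.04 and 0.631 CPM in the knockout, from 19 and 188 counts. The gene passed the filter on low counts only through the knockout, so the gap between the groups and the p-value are descriptions. The groups did not overlap, and the log2 fold change was 3.20 ± 0.64 (edgeR, adjusted p = 0.00101). It ranged from 2.793 without wild-type replicate 2 to 3.865 without wild-type replicate 4, so its size is uncertain. Next to it Rassf6, a gene of the Ras association domain family, rose from 0.586 ± 0.247 to 2.78 ± 0.425 CPM (2.24 ± 0.27, adjusted p = 1.52e-05).

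Farther along the same side lie the CXC chemokines, which attract neutrophils and other leukocytes, and the EGF family growth factors. Cxcl1 rose from 2.51 ± 0.442 to 18.5 ± 0.62 CPM (log2 fold change 2.88 ± 0.12, edgeR adjusted p = 1.2e-09) and Cxcl5 from 0.0942 ± 0.0421 to 2.46 ± 0.742 CPM (adjusted p = 3.39e-07). Pf4 (platelet factor 4) had 7 counts over the wild type, all in replicate 3, and 2163 over the knockout (adjusted p = 2.67e-08, log2 fold change 8.08, or 12.016 without that library). Cxcl5 and Pf4 passed the filter on low counts only through the knockout, so nothing is read from their calls. The growth factor gene Btc (betacellulin) rose from 6.57 ± 0.952 to 17.9 ± 1.03 CPM (adjusted p = 1.35e-07). Areg (amphiregulin), of the same growth factor group, was not called, at 29.8 ± 3.28 against 30.6 ± 1.42 CPM. On the Alb side the changes were smaller. Ankrd17, 94 kb from Alb, was not called (266.3 ± 35.7 against 256.5 ± 14.7 CPM, adjusted p = 0.617), and Cox18, which serves assembly of the respiratory chain, rose by 0.51 ± 0.07 on the log2 scale (adjusted p = 8.48e-05).

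Around Gc, 27 other genes lie within 1 Mb and 9 were tested, of which 5 rose, none fell and 4 were not called. Their median log2 fold change was 0.389. Rufy3 rose from 23.1 ± 1.18 to 35.6 ± 1.13 CPM, the nucleoside kinase gene Dck from 84.9 ± 6.82 to 117.2 ± 7.8 CPM and Utp3, a ribosome biogenesis gene, from 133.4 ± 5.83 to 177.3 ± 10.9 CPM (edgeR, adjusted p = 1.71e-06, 6.26e-05 and 3.06e-05). Counted once, 16 of the 23 tested genes near Gc or near the Alb, Afp and Afm row rose (69.6%). That count includes the genes that passed the filter only through the knockout. Within 5 Mb of the row, 33 of 59 rose and 2 fell, with a median of 0.465, and taking such a median off the Afp log2 fold change left 4.062.

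**Figure D3:**
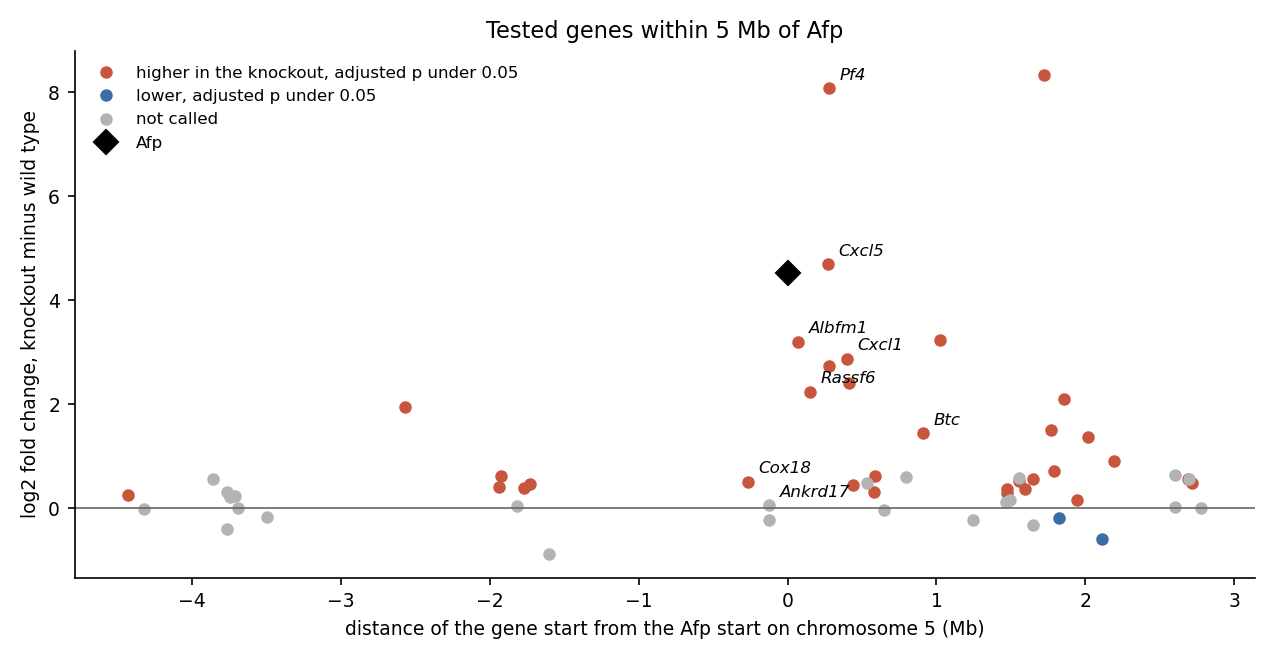
Log2 fold change, knockout minus wild type (y axis), of each tested gene within 5 Mb of Afp by the distance of its start from the Afp start in Mb (x axis). Albfm1, Rassf6 and the chemokine genes past Afp stand above 2, and Cox18 and Ankrd17 before it at 0.51 and 0.05.

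The regions around the repressor genes had calls in both directions. Within 1 Mb of Zhx2, 12 genes were tested, of which 5 rose, 1 fell and 6 were not called (median log2 fold change 0.172). Taking off the median within 5 Mb (0.153) turned the Zhx2 value to -0.059. Within 1 Mb of Zbtb20, 11 were tested, of which 5 rose, 1 fell and 5 were not called (median 0.329). Over all genes tested, 23.6% rose and 23.6% fell, and the shares near the repressors were not compared with those near the family.

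RNAs of other regulators of Afp changed in both directions. The genes listed were 22 factors known to act on the promoter or enhancers of Afp, 6 relatives or partners of Zhx2 and, as readouts of Zhx2 and not regulators of Afp, 3 other genes that Zhx2 represses in liver, none of which could be tested. Of the 31, 22 were tested and 17 were called (77.3%, against 47.2% of all genes tested), 9 higher and 8 lower. The median log2 fold change of the 22 was -0.008. Of the Afp factors alone 16 were tested, with 5 higher and 7 lower (median -0.076). Of the 6 relatives or partners of Zhx2, 4 were higher and 1 was lower (median 0.238). Over all genes tested, 23.6% rose and 23.6% fell. The factors of the C/EBP and FOXA families, which activate Afp in hepatocytes, were lower in the knockout where they were called. Cebpb fell from 123.3 ± 6.53 to 56.5 ± 7.36 CPM (edgeR, adjusted p = 1.6e-07) and Cebpa from 5.43 ± 0.733 to 2.27 ± 0.495 CPM (adjusted p = 3.84e-05). Foxa2 fell from 11.5 ± 1.68 to 6.31 ± 0.34 CPM (adjusted p = 3.05e-05) and Foxa1 from 1.37 ± 0.243 to 0.368 ± 0.183 CPM (adjusted p = 0.00136). Foxa3 was not called, at 0.387 ± 0.102 against 0.258 ± 0.163 CPM.

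Nuclear factor I genes, whose proteins bind the Afp promoter, rose. Nfia showed the largest change of the 4, with 0.163, 0.742, 1.26 and 0.524 CPM in the wild type and 4.71, 4.9, 5.89 and 4.54 CPM in the knockout (log2 fold change 2.88 ± 0.38, edgeR adjusted p = 3.35e-05). The groups did not overlap. Nfix rose from 44.6 ± 4.2 to 67.8 ± 2.27 CPM (adjusted p = 5.63e-06). Nfic and Nfib rose by 0.22 ± 0.07 and 0.16 ± 0.06 on the log2 scale (adjusted p = 0.0167 and 0.0363). The Nfic call was lost without wild-type replicate 3 (adjusted p = 0.0592). The Nfib call was lost without knockout replicate 1 (0.116) or 2 (0.0693), without wild-type replicate 1 (0.0865) or 4 (0.068), and with the replicate number as a block (0.0588).

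Nr3c1, the glucocorticoid receptor gene, rose from 72.7 ± 2.98 to 99.1 ± 3.11 CPM (edgeR, adjusted p = 5.54e-06). Trp53, whose product represses Afp in hepatocytes, fell by 0.23 ± 0.05 on the log2 scale (adjusted p = 0.00107), Nr2f2 by 0.29 ± 0.05 (0.000218) and Ctnnb1, which encodes beta-catenin, by 0.21 ± 0.04 (0.000243). Gata6, Nr2f1 and Tcf7l2 were not called, with log2 fold changes of -0.02, 0.003 and -0.13. The remaining 6 factors were too low to test. Hnf4a, Nr5a2 and Onecut1 had 0 counts in all 8 libraries. Gata4 had 16 counts over the knockout and 0 over the wild type.

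Both relatives of Zhx2 in the ZHX family rose, Zhx3 from 9.18 ± 1.36 to 14.6 ± 1 CPM and Zhx1 from 31.1 ± 2.35 to 38.6 ± 3.99 CPM (edgeR, adjusted p = 0.00018 and 0.00588). The related homeobox gene Homez rose by 0.44 ± 0.10 on the log2 scale. Of the NF-Y subunits, to which ZHX proteins bind, Nfya fell from 112.4 ± 4.44 to 83.2 ± 2.57 CPM (adjusted p = 6.03e-06), Nfyc rose by 0.16 ± 0.04 (0.00751) and Nfyb was not called. The other Zhx2 targets listed were not expressed at a level that could be tested: Gpc3 had 0 counts in all libraries, H19 had 29 over the knockout and 25 over the wild type, and Lpl had 0 and 4. Zhx2 targets outside the list were not examined.

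**Figure D4:**
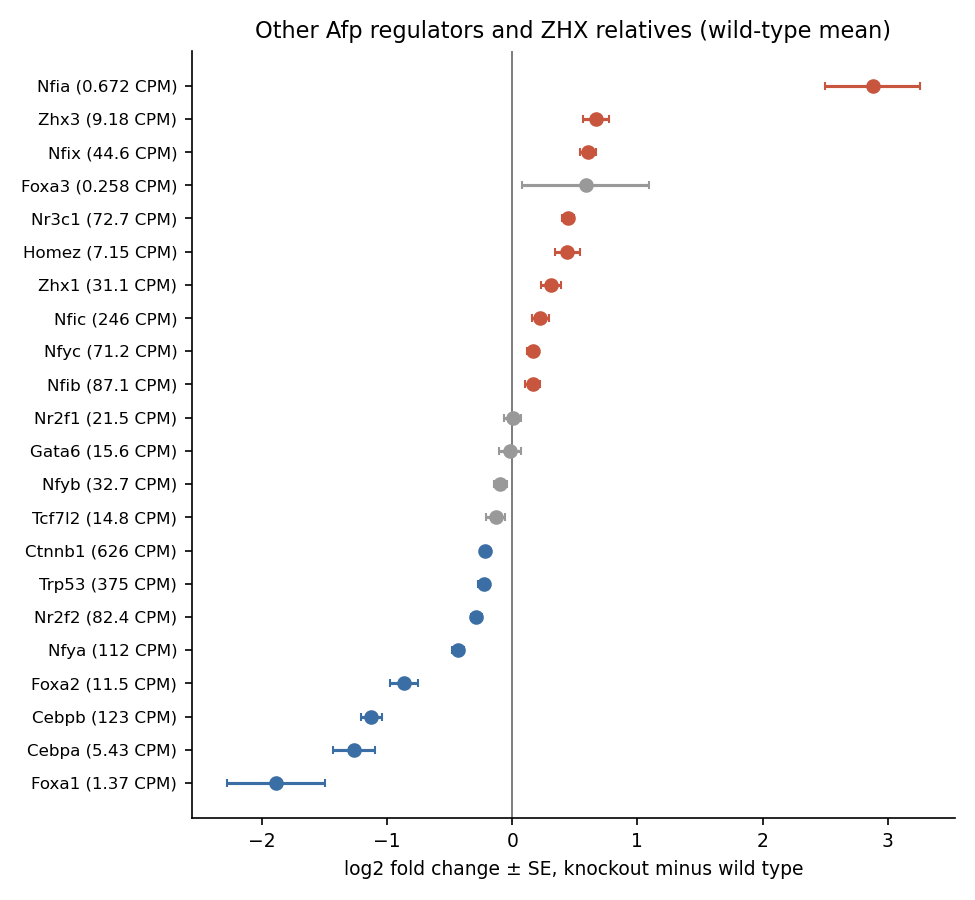
Log2 fold change with SE, knockout minus wild type (x axis), of the 22 tested regulators of Afp and ZHX relatives, with the wild-type mean in CPM beside each name. Orange points rose, blue points fell and grey points were not called at an adjusted p of 0.05.

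The label calls the cells liver cancer cells, and markers of hepatocytes were all but absent from both groups. Of 10 markers (Alb, Ttr, Apoa1, Apob, Trf, Serpina1a, Fgb, Ahsg, Hnf4a and Cps1), 6 had 0 counts in every library and none reached 1 CPM. Their summed level was 0.221 to 0.319 CPM in the knockout and 0.0605 to 0.359 CPM in the wild type. The identity of the line was not tested. Of 42 genes of plasma proteins made by hepatocytes, 19 had 0 counts in every library and 9 could be tested. Of these 4 rose, 2 fell and 3 were not called (66.7% called, against 47.2% of all genes tested). Ceruloplasmin (Cp), the copper carrier, went from 5.54 ± 1.07 to 37.7 ± 1.6 CPM and Apoe from 4.58 ± 1.08 to 11.3 ± 1.22 CPM (edgeR, adjusted p = 1.19e-09 and 9.22e-06). Hemopexin (Hpx), which binds heme, rose from 0.0887 ± 0.0655 to 1.36 ± 0.0637 CPM (adjusted p = 3.53e-05). Itih4 rose at a trace level (adjusted p = 0.0117, and 0.0646 without knockout replicate 1). Hpx and Itih4 passed the filter on low counts only through the knockout, so nothing is read from the share of calls. Fetub and Rbp4, the retinol carrier, fell by 0.62 ± 0.10 and 0.72 ± 0.17 (adjusted p = 0.000158 and 0.00321).

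Genes of proteins that take up or recycle the family's products, and of their partners, were also examined at the RNA level. Of 7 such genes, all tested, 5 rose and none fell (71.4%, against 23.6% of all genes that rose). Fcgrt, the heavy chain of the neonatal Fc receptor that recycles albumin, went from 3.77 ± 0.429 to 5.19 ± 0.486 CPM and its light chain B2m from 213.7 ± 21.7 to 375.5 ± 23.4 CPM (edgeR, adjusted p = 0.00937 and 7.28e-07). Dab2, an endocytic adaptor, rose by 0.72 ± 0.06 and Lrpap1, a chaperone of LDL receptor family proteins, by 0.73 ± 0.08. Cubn (cubilin) rose from 2.08 ± 0.449 to 3.36 ± 0.791 CPM (adjusted p = 0.0145, and 0.0627 without knockout replicate 1). Its partner Amn and Lrp2 (megalin) were under 1 CPM and not called.

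The genes most like Afp in their pattern over the 8 libraries were Ccl7, Mmp3, Akr1c13, Dmp1 and Plce1. Likeness was the root mean square difference of log2(CPM + 0.1), each gene centered on its own mean, among 9976 other genes whose mean reached 5 CPM. The differences were 0.209, 0.268, 0.307, 0.32 and 0.364. Ccl7, a chemokine gene on chromosome 11, went from 1.05 ± 0.324 to 25.9 ± 4.25 CPM, and Mmp3, a matrix metalloprotease gene on chromosome 9, from 2.18 ± 0.296 to 38.2 ± 1.83 CPM. Akr1c13 (chromosome 13), Dmp1 (chromosome 5) and Plce1 (chromosome 19) were each at 13.1 to 15.5 CPM in the knockout on average and under 1 CPM in the wild type. The selection picked genes for the same contrast, so their changes are no result.

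**Figure D5:**
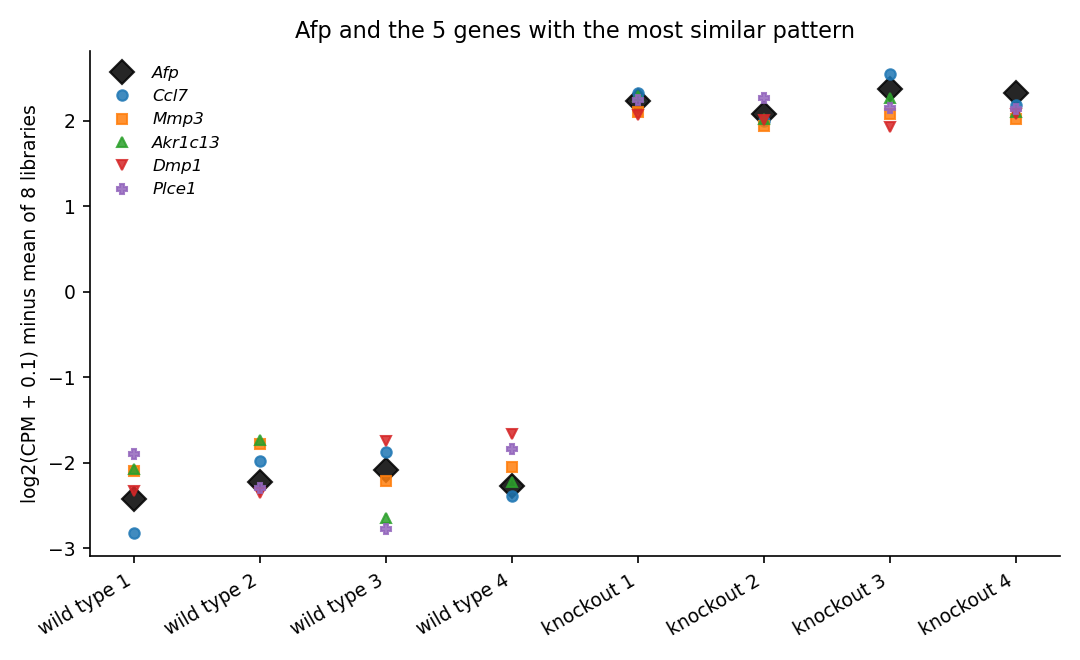
Level of Afp and of the 5 genes most like it in each library, as log2(CPM + 0.1) minus the gene's mean over the 8 libraries (y axis). All 6 genes lie below 0 in the 4 wild-type libraries and above 0 in the 4 knockout libraries.

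Markers of other liver cell types were also counted. Of the fibroblast and stellate cell markers 4 of 6 tested rose and none fell, where 23.6% of all genes tested rose. Their summed level was 430.8 to 463.3 CPM against 109.3 to 119.6 CPM, nearly all of it Col3a1 (428.6 against 106.8 CPM), and the stellate marker Lrat was at 0. The other tested markers, Pdgfra (1.13 against 1.71 CPM) and Pdgfrb (0.0546 against 0.186 CPM), had lower means in the knockout and were not called. Of the macrophage markers 1 of 4 tested rose and 1 fell, with Adgre1 and Clec4f at 0 (sums 15 to 19.2 against 18 to 20.8 CPM). Of the endothelial markers 1 of 3 tested rose and none fell (sums 4.84 to 6.03 against 2.54 to 3.57 CPM). Bile duct markers fell in 2 of 3 tested cases, Epcam and Sox9, and none rose (55 to 63 against 64.1 to 69 CPM), where 23.6% of all genes tested fell. Most of that sum was Krt19, which was not called (51.9 ± 3.3 against 53.2 ± 2.52 CPM), and Krt7 was at 0. The part of these cell type markers in the Afp values was not tested.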

How the data were processed

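RNA of 8 Hepa 1-6 libraries was prepared with TRIzol, poly-A selection and a SMARTer mRNA kit, per the labels' protocols. Per the submitters' processing notes, the genome build GRCm38.p6 and the tools HISAT2, Trimmomatic and FastQC were used, with no versions or roles listed. Not given in the sources used here are the counter, its annotation and any use of strand. Per the file headers and values, the authors deposited whole-number counts per Ensembl transcript. The design written beforehand allowed for transcript rows, and these were summed per gene with GENCODE mouse release 21 (GRCm38): 114332 of 115220 transcripts matched (99.23%), giving 47434 genes. The unmatched transcripts held 0.148% to 0.17% of a library's counts. Limits of detection cover counting error only, while SE and SD also include the variation between libraries.

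Groups were compared with the quasi-likelihood test of edgeR 4.0.16 in R 4.3.3 (TMM, filterByExpr, genotype as the only term, two-sided, Benjamini-Hochberg adjustment over 15840 genes, threshold 0.05). SE is the size of the log2 fold change over the square root of F. TPM used annotated transcript lengths. The code was checked on simulated counts with known changes. No pair of same-group libraries matched within counting error (lowest chi-square over its degrees of freedom, 10.94), so each counted as 1 replicate. Alternatives were DESeq2 1.42.0, limma-voom (limma 3.58.1), leaving out each library, a replicate block, other scalings and filters, and a correction for neighboring genes.

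The 6 genes and all lists were chosen with earlier results of these data known. Named by rule were, of each list, up to 6 genes with the lowest p and those with at least 10 CPM; up to 5 neighbors within 1 Mb by lowest p; and the 5 genes most like Afp. Not all genes so selected are described, and Albfm1, Ankrd17, Cox18, Areg and genes named as not called or untested were added after their values were seen. Transferrin, listed as Tf, was matched as Trf. Promoter windows were RefSeq's (GRCm38.p6), with entries for 4 family genes used. Python 3.11.15 was used. Results on a few listed genes are not reported here.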

Additional observations from a re-analysis of the deposited data

How the results depend on the processing

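The Afp log2 fold change was 4.47 to 4.61 under the scalings, filters, tools and omissions tried, and 4.062 with the median of genes within 5 Mb taken off. By construction that last step also lowered Zbtb20 (0.261) and turned Zhx2 to -0.059. Leaving out 1 library gave 4.471 to 4.589 for Afp, 0.049 to 0.155 for Zhx2 and 0.444 to 0.598 for Zbtb20. With a filter of at least 5 CPM fewer genes were tested: 3 of 3 plasma protein genes were called in place of 6 of 9, and 9 of 12 genes near the family in place of 16 of 23. Over all genes that filter gave 5786 calls among 9978 tested, 2919 of them higher, in place of 7476 among 15840. Within 2 Mb of the family, under the main filter, 30 of 42 were called, 29 higher and 1 lower. Leaving out 1 library kept the plasma protein count at 5 to 6 and that within 1 Mb of the family at 16. The Afp factors and Zhx2 relatives together then stayed at 16 to 17. Over all genes the count of calls was 7476, and 5786 to 7772 under the alternatives. Of 63 single genes put through the alternatives, none reversed. The calls of Nfib, Nfic, Cubn and Itih4 were lost under the settings given with them. The Nfib call was also lost with all genes of at least 1 count (adjusted p = 0.0657, edgeR). Lamb1 and some genes named as not called were not among the 63. Same-numbered libraries of the 2 groups deviated together little or not at all (r of -0.019 to 0.069). The highest r of any pair, 0.069, was between the libraries numbered 3, but not every library correlated best with its own number. Such correlations cannot exclude that same-numbered libraries were handled together. With the replicate block 7255 genes were called, with Afp at 4.528, Zhx2 at 0.094 and Zbtb20 at 0.523. Of the Afp factors and Zhx2 relatives together, 16 were then called. Depth limits Alb, Afm and Gc, whose counts were at 0 or near it.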

Other observations

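Markers of the yolk sac, another source of alpha-fetoprotein, and of fetal liver progenitors were also counted. Over all genes tested, 23.6% rose and 23.6% fell. Of 17 visceral endoderm and yolk sac genes, 10 were tested, 3 rose, 3 fell and 4 were not called (median log2 fold change 0.148). Ttr, Apoa4, Hnf4a, Sox17 and Spink1 had 0 counts in all 8 libraries. The 3 that rose were Dab2, Cubn and Lamb1, the last from 330.3 ± 11.4 to 393.8 ± 19.7 CPM (edgeR, adjusted p = 0.000541). The 3 that fell were Foxa2, Rbp4 and Cited1, the last from 2.25 ± 0.276 to 0.486 ± 0.307 CPM (adjusted p = 0.000363). Rhox5, an X-linked homeobox gene of extraembryonic tissue, was high in both groups and not called (371.6 ± 48.1 against 360.8 ± 66.9 CPM).

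Of 16 fetal liver progenitor genes 7 were tested, of which 1 rose and 5 fell (median log2 fold change -0.539), where 23.6% of all genes tested rose and 23.6% fell. The adhesion gene Epcam fell from 4.71 ± 0.488 to 1.24 ± 0.423 CPM (edgeR, adjusted p = 1.97e-05) and Igf2bp1, which encodes an RNA-binding protein of fetal tissue, from 172.8 ± 10.2 to 118.9 ± 7.54 CPM (adjusted p = 5.35e-06). Sox9 and Cd24a fell by 0.65 ± 0.11 and 0.96 ± 0.15 on the log2 scale (adjusted p = 0.000324 and 0.000148). Spp1 (osteopontin) rose from 343.4 ± 27.9 to 670.6 ± 25.4 CPM (adjusted p = 2.33e-08). Dlk1, Gpc3, Krt7, Lin28b and Prom1 had 0 counts in all libraries. Visceral endoderm and progenitor lists share genes with the lists of plasma proteins, receptors and bile duct cells described above.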
